A study of Mus musculus with 7 samples.

Results

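Myoepithelial cells form the outer, basal layer of mammary ducts and alveoli and carry the contractile apparatus of smooth muscle. Contraction begins when calcium and calmodulin activate myosin light chain kinase, which phosphorylates the regulatory light chain of smooth muscle myosin and lets it pull on actin filaments. In the gland this is triggered by oxytocin and ejects milk, and the same apparatus works in the walls of blood vessels. The 10 genes described here were chosen by symbol. They are the actins Acta2 and Actg2, the myosin heavy chain Myh11, the light chain Myl9, the kinase Mylk, the actin filament proteins Cnn1, Tagln, Tpm2 and Lmod1, and the oxytocin receptor Oxtr. They are 10 of 18193 genes with a probe set annotated to a single symbol, and 19 probe sets represent them.

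The glands came from virgin females on the FVB background that carried PyV-MT, the middle T oncogene of polyoma virus, so controls bear the oncogene too, and no array of a gland without it was analysed here. The sources used here do not give the promoter that drives the oncogene. From 4 weeks of age, for 4 weeks, the mice ate either control AIN93G chow (3 arrays here of 5 mice) or the chow with 1% conjugated linoleic acid (CLA, 4 arrays here of 6 mice), a group of linoleic acid isomers with conjugated double bonds, and RNA of the whole gland was taken at 8 weeks of age. Each array is 1 mouse, and precision is limited by how few arrays there are.

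Values are MAS5 signals, the summary of an Affymetrix probe set on a linear scale, and each array had the same trimmed mean of 500.003. Title numbers begin with 27 on the first control and first CLA array (the 27 pair) and with 28 on the other 5 arrays (the 28 set). The sources used here do not give their meaning, and differences inside the pair and the set are printed beside the result of each contractile gene, of the other Tpm2 probe sets and of some genes of other lists, the basal keratins among them. Some arrays stood apart in other tissue. The skeletal muscle score, the average over 18 muscle genes of log2 signal relative to each gene's own average, was 4.01 on control replicate 2, against -3.16 to 1.40 elsewhere. The Actb 3′ to 5′ ratio, which goes up as RNA degrades, reached 2.78 on CLA replicate 3; elsewhere it was 1.41 to 1.88. In bulk tissue, fewer cells of a type and less RNA per cell cannot be told apart.

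The label of the genes was checked against markers of the layer. The basal keratins Krt5 (559 to 2198) and Krt14 (502 to 2456) and the basal transcription factor Trp63 (215 to 837) had signal above the filter on every array. So did the pericyte genes Rgs5 (2448 to 4414) and Pdgfrb (913 to 1820). Other markers of these lists fell under it on some arrays. On control replicate 2 the basal genes Krt17 and Cdh3 were 43.3 and 29.0. The pericyte gene Cox4i2 was 39.8 on CLA replicate 1, and the basal gene Wif1 was too dim to test. Transcripts of some markers of both myoepithelium and vessel walls were therefore in the RNA, and the share of each in the contractile signal was not tested. Myocd, the coactivator that defines smooth muscle of vessels and viscera, lay between 4.74 and 21.5, under the filter signal of 57.7 on every array.

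No diet difference of a contractile gene passed the test, on the probe set used for each. Limma called 0 of 10 at an adjusted p under 0.05 over all 12497 genes tested, and 0 of 10 had an unadjusted p under 0.05. In the whole table the corresponding shares were 0% higher and 0% lower at the adjusted threshold, and 2.38% higher and 3.01% lower (5.39% in all) at the unadjusted one. On the probe set used for each gene the control and CLA arrays overlapped for all 10, against 5.31% of all genes without overlap. Of the members, 4 had a log2 change above 0, CLA minus control, and 6 below, where 55.3% of all genes were above 0. The median change was -0.019 over the members and 0.027 over all genes tested. The smallest p belonged to Myh11 (0.170), and limma's adjusted p ran from 0.944 to 0.999.

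**Figure D1:**
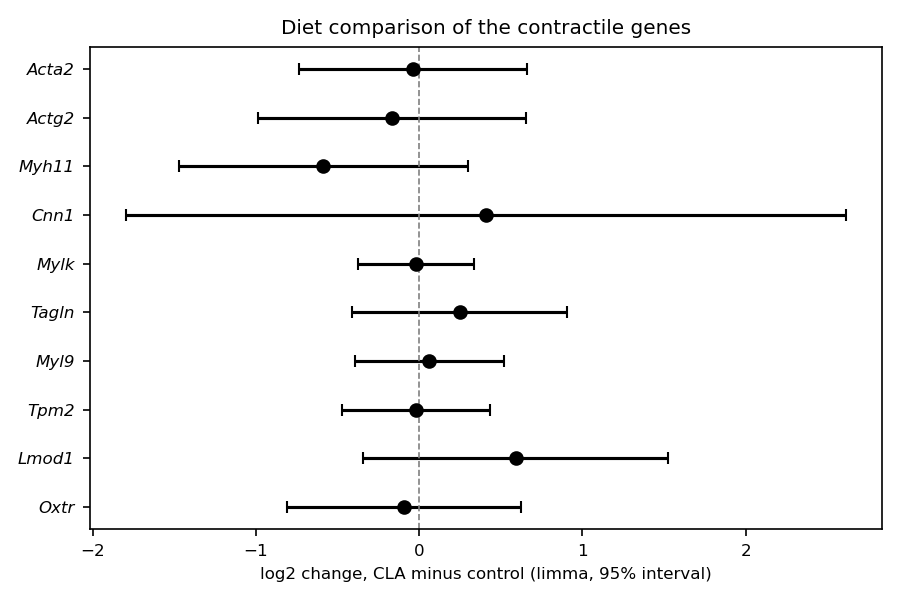
Log2 change of signal, CLA minus control, for the 10 contractile genes (points, limma estimate from 3 control and 4 CLA arrays; bars, 95% interval). Every interval includes 0, and their widths differ: that of Mylk runs from -0.38 to 0.34 and that of Cnn1 from -1.80 to 2.62.

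The actins build the thin filament. Acta2, smooth muscle α-actin and the usual histological marker of myoepithelium, had signals of 3762, 2665 and 5062 in control glands and 3603, 3645, 2219 and 5833 in CLA glands, in the order of the replicate numbers here and below. Both the lowest and the highest array were CLA arrays, and the group means were almost the same, 3829 ± 1200 (SD, n = 3) and 3825 ± 1494 (SD, n = 4). Its log2 change was -0.04 ± 0.31 (SE), with a 95% interval from -0.74 to 0.66, with -0.06 in the 27 pair and -0.02 in the 28 set. The probe set is of the _s_at type, whose probes can match transcripts of more than 1 gene, and other actins may add to it. The remaining Acta2 probe sets were below the filter: 1444105_at had 3.04 to 50.1, and 1456658_at had 5.44 to 13.8 in control and 20.3 to 42.3 in CLA glands, without overlap. Signals this dim carry background and were not tested.

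Actg2, the γ-actin of enteric smooth muscle that is also made in myoepithelium, had 91.9, 164 and 79.5 in control and 135, 80.5, 65.3 and 113 in CLA glands. Its highest array was control replicate 2, the array with the highest skeletal muscle score, and the groups overlapped. The log2 change was -0.17 ± 0.37 (SE), made of 0.56 in the 27 pair and -0.44 in the 28 set. It was 0.15 without control replicate 2 and 0.42 with the skeletal muscle score as a covariate, neither past the test. Over the 7 arrays, Actg2 and Acta2 had a Pearson r of 0.049 on the log2 scale (Spearman coefficient 0), given as a description.

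**Figure D2:**
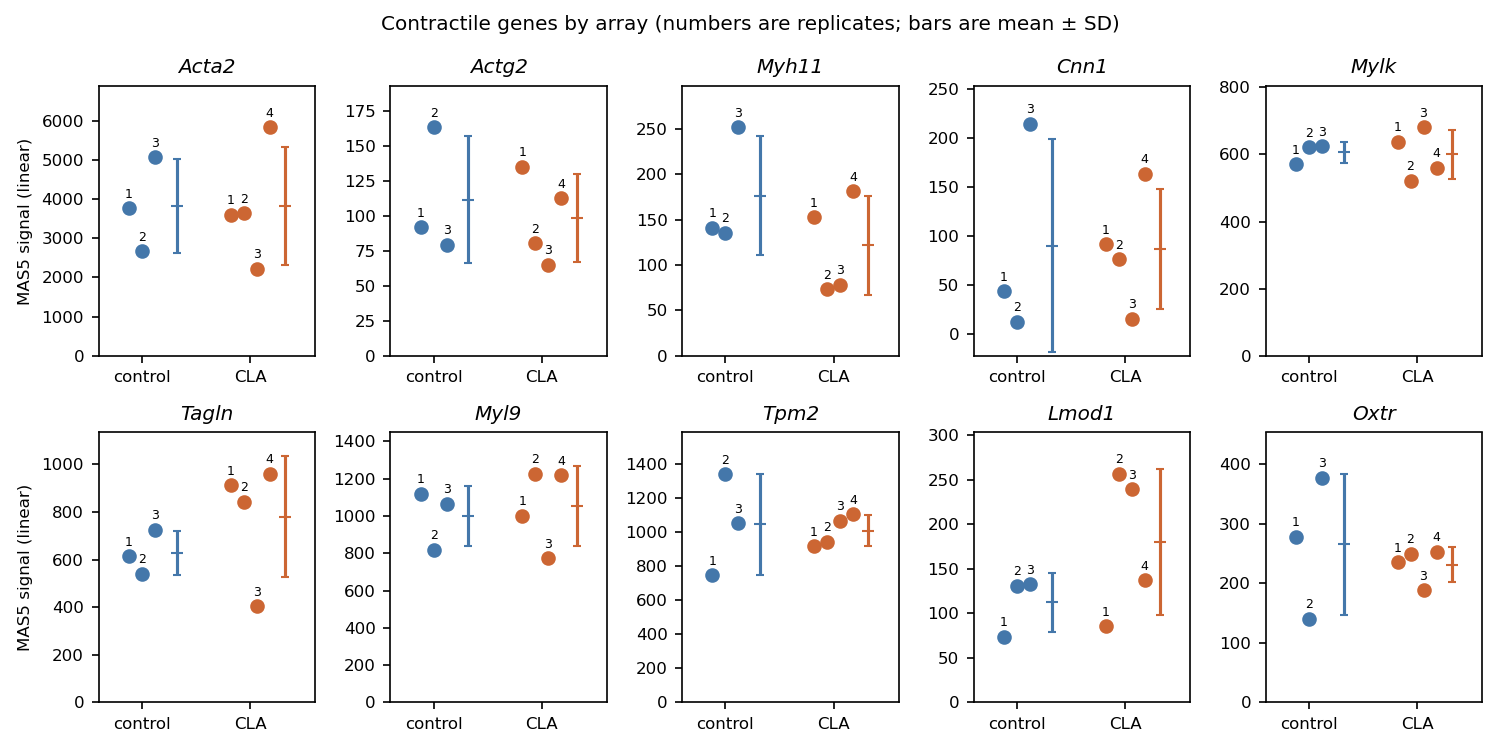
MAS5 signal (linear axis) of the probe set used for each contractile gene, by diet; numbers beside points are replicates, and the bars to the right of each group are its mean ± SD (n = 3 control, n = 4 CLA). The groups overlap in all 10 panels, and control replicate 2 and CLA replicate 3 hold the lowest values of Acta2, Cnn1, Tagln, Myl9 and Oxtr.

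Short pieces of promoter are shown for Acta2 and Myl9 because they held a match to the CArG box, the element bound by serum response factor, which drives smooth muscle genes together with myocardin-family coactivators. A match is CC, then 6 bases of A or T, then GG, a pattern that reads the same on both strands; a CArG-like match has 1 C or G among the 6. The search covered 250 bases before the start site, in the RefSeq table of GRCm38.p6, which held 7 members: Acta2, Cnn1, Lmod1, Myl9, Mylk, Oxtr and Tpm2. In lower case with matches in capitals, 5′ to 3′ on the strand of the gene, the pieces are, for Acta2, chr19:34255438-34255467 and chr19:34255388-34255417 (minus strand) and, for Myl9, chr2:156775214-156775407 (plus strand).
Acta2 upstream window: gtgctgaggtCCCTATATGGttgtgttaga
Acta2 downstream window: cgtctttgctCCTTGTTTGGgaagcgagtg
Myl9: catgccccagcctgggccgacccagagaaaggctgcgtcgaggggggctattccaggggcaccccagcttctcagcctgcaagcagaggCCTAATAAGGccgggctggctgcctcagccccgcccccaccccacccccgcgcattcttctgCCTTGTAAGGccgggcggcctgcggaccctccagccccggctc
The matches in Acta2 are both CArG-like, starting 84 and 34 bases before the start site, and the annotated span of Acta2 begins further upstream than this start. Myl9 has 1 CArG box, starting 161 bases before its start site, and 1 CArG-like match, 99 bases before it. The other 5 promoters held neither in this window. Among all 32851 promoter entries, 1.47% held a CArG box and 8.59% a CArG box or CArG-like match. These are descriptions of letters, and no binding was measured here.

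The thick filament and its switch came next. Myh11, the smooth muscle myosin heavy chain, had 141, 136 and 252 in control and 153, 73.2, 78.5 and 182 in CLA glands. CLA replicates 2 and 3 lay below all controls, while CLA replicates 1 and 4 lay among them. Myh11 thus had a log2 change of -0.59 ± 0.40 (SE), 95% interval -1.47 to 0.30, at an adjusted p of 0.944 by limma. It was 0.12 in the 27 pair and -0.86 in the 28 set. With array weights it was -1.07 (limma adjusted p = 0.208). The second Myh11 probe set, 1418122_at, was below the filter at 3.96 to 37.0 and was not tested.

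Myl9, the regulatory light chain that the kinase phosphorylates, had 1120, 819 and 1067 in control and 1002, 1227, 774 and 1218 in CLA glands. The lowest arrays were CLA replicate 3 and control replicate 2, and the rest lay within a narrow band. Its log2 change was 0.06 ± 0.20 (SE), or -0.16 in the 27 pair and 0.17 in the 28 set.

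Mylk, the light chain kinase, varied least. Its signals were 571, 622 and 624 in control and 637, 522, 681 and 560 in CLA glands, and the highest array was only 1.30-fold above the lowest. Its log2 change was -0.02 ± 0.16 (SE), with 0.16 in the 27 pair and -0.09 in the 28 set. The other Mylk probe sets, 1425505_at (284 to 482) and 1425504_at (49.0 to 85.1), had log2 changes of 0.03 ± 0.24 and 0.04 ± 0.37 (SE). All 3 estimates were smaller than their standard errors. Mylk also makes a long form in other cells, and which transcript each probe set reads was not tested.

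Among the actin-binding proteins, Cnn1, calponin, which restrains the actin-activated myosin ATPase, varied most. Its signals were 43.7, 12.8 and 214 in control and 91.5, 76.2, 16.1 and 164 in CLA glands. The lowest and the highest array were both controls, 16.7-fold apart. The geometric mean of 58.0 lay just above the filter of 57.7, so several Cnn1 values are near background. Its log2 change was 0.41 ± 0.98 (SE), 1.07 in the 27 pair, 0.16 in the 28 set, and -0.56 without control replicate 2.

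Tagln, transgelin (SM22α), an actin cross-linker and early smooth muscle gene, had 615, 541 and 726 in control and 912, 843, 405 and 961 in CLA glands. CLA replicates 1, 2 and 4 lay above all controls, and CLA replicate 3 lay below all of them. The log2 change was 0.25 ± 0.29 (SE), or 0.57 in the 27 pair and 0.14 in the 28 set. Without CLA replicate 3, the array with the Actb 3′ to 5′ ratio of 2.78, it was 0.54, with limma's unadjusted p of 0.0130 and adjusted p of 0.815. With control replicate 2 left out as well, an alternative chosen after seeing the data, it was 0.44 (adjusted p = 1.00 by limma).

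Lmod1, leiomodin, which nucleates actin filaments in smooth muscle, had 73.9, 131 and 132 in control and 85.4, 257, 239 and 137 in CLA glands. CLA replicates 2, 3 and 4 lay above all controls, and the lowest array of each group was that of the 27 pair. Its log2 change was 0.59 ± 0.42 (SE), with a 95% interval from -0.34 to 1.53. The 27 pair gave 0.21 and the 28 set 0.63. Without CLA replicate 1 it was 0.90, with limma's unadjusted p of 0.0332 and adjusted p of 0.871.

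Oxtr, the receptor through which oxytocin makes myoepithelium contract, had 278, 141 and 377 in control and 236, 250, 188 and 253 in CLA glands. All 4 CLA arrays lay between the lowest and the middle control array. The log2 change was -0.09 ± 0.32 (SE), with -0.24 in the 27 pair and -0.01 in the 28 set. The dimmer Oxtr probe set, 1426000_at, ranged from 34.0 to 103 and had a log2 change of 0.39 ± 0.49 (SE), of the other sign and also within its error.

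Tpm2 was the member whose probe sets disagreed. β-tropomyosin lies along the actin filament, and by alternative splicing the gene makes a smooth muscle form and a skeletal muscle form. The brightest probe set, 1419738_a_at, had 747, 1341 and 1051 in control and 918, 944, 1068 and 1104 in CLA glands, with a log2 change of -0.02 ± 0.20 (SE), 0.30 in the 27 pair and -0.20 in the 28 set. Probe set 1449577_x_at, of the _x_at type, whose probes can bind other sequences, had 234, 2925 and 621 in control and 234, 67.6, 173 and 66.5 in CLA glands. Control replicate 1 and CLA replicate 1, the 27 pair, were level at 233.7 and 233.6, so the groups only just failed to overlap. Control replicate 2 stood far above the rest. The means differed 9.31-fold, and the log2 change was -2.69 ± 0.77 (SE), with limma's unadjusted p of 0.00650 and adjusted p of 0.866 over 22870 probe sets. The remaining probe sets, 1425028_a_at and 1419739_at, had log2 changes of -0.71 ± 0.38 and -0.87 ± 0.46 (SE). For 1449577_x_at the log2 difference was -0.00044 in the 27 pair and -3.87 in the 28 set. For 1425028_a_at it was 0.30 and -1.20, and for 1419739_at 0.63 and -1.54. The 28 set holds control replicate 2. On 1425028_a_at and 1419739_at, control replicate 2 was highest, at 1539 and 623, against at most 639 and 239 elsewhere.

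All 4 Tpm2 probe sets were highest on control replicate 2, the array with the highest skeletal muscle score, and the 3 dimmer ones by the wider margin. The muscle score was 0.75, 4.01 and 1.40 in control and 1.29, -3.16, -1.26 and -3.04 in CLA glands, and the summed signal of its 18 tested genes ran from 13450 to 124780 in control and from 817 to 20085 in CLA glands. All 18 had a negative log2 change with an unadjusted p under 0.05, against 3.01% of all genes tested, and 0 passed limma's adjusted threshold. Across the 7 arrays, log2 signal of 1449577_x_at had a Pearson r of 0.946 with this score (exact permutation p = 0.000794, adjusted p = 0.0516 over 65 relations) and a Spearman coefficient of 0.929 (exact p = 0.00675, adjusted p = 0.438). Without the 2 arrays farthest from the median score, CLA replicates 2 and 4, r was 0.905. Control replicate 2 was still among the arrays kept, and r without it was not computed. For 1419739_at, 1425028_a_at and the brightest probe set r was 0.847, 0.769 and 0.252 (exact permutation p = 0.00675, 0.0194 and 0.605), and the Spearman coefficient was 0.857, 0.821 and 0.179. With this score as a covariate the log2 changes became -0.47 for 1449577_x_at, 0.22 for 1419739_at and 0.08 for 1425028_a_at. Limma's unadjusted p was 0.469, 0.682 and 0.873. In the 28 set both controls had a higher score than every CLA array, so this fit cannot cleanly part the score from diet. Without control replicate 2 they were -1.71, -0.27 and -0.17. The same probe sets also had a negative r with the score of 14 basal epithelial genes outside the contractile set. It was -0.848 for 1449577_x_at, -0.879 for 1419739_at and -0.838 for 1425028_a_at (exact permutation p = 0.0165, 0.00675 and 0.0131, adjusted p = 0.211, 0.146 and 0.211), with Spearman coefficients of -0.643, -0.821 and -0.679. Without the 2 arrays farthest from the median basal score, control replicate 2 and CLA replicate 2, r was -0.448, -0.599 and -0.437. No r was computed within the 28 set, which has 5 arrays, and the r on 5 arrays given here and below serves only to show how far a value rests on the arrays left out.

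**Figure D3:**
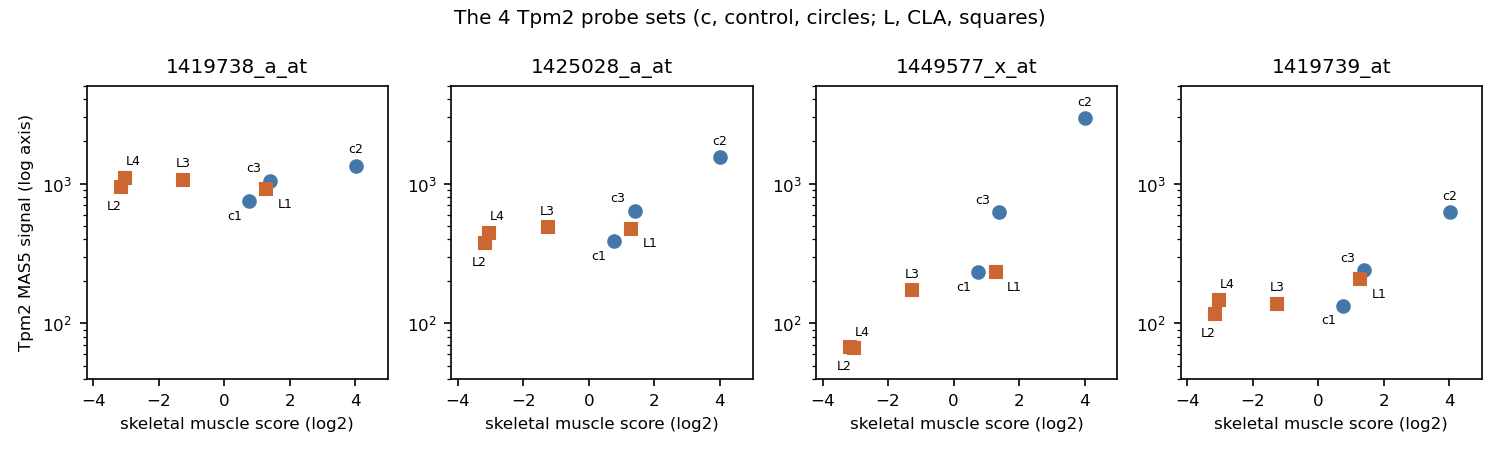
Signal of the 4 Tpm2 probe sets (log axis) against the skeletal muscle score of the array (18 genes, log2 scale; circles c1 to c3, control; squares L1 to L4, CLA). Probe set 1449577_x_at runs from 66.5 to 2925 along the score, while 1419738_a_at stays between 747 and 1341.

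Within both groups several of the contractile genes were high or low on the same arrays. Control replicate 2 and CLA replicate 3 were the lowest arrays for Acta2, Cnn1, Tagln, Myl9 and Oxtr. The mean of the 10 members, each as log2 signal minus its own mean, was -0.29 on control replicate 2 and -0.44 on CLA replicate 3. It was 0.38 on control replicate 3 and 0.37 on CLA replicate 4. The remaining 3 arrays lay from -0.16 to 0.09. Genes enter this mean unscaled, so Cnn1, which varied most and had values near background, can weigh most in it. Actg2 and Tpm2 went the other way on control replicate 2, where they were highest, at 164 and 1341. Pearson r over the 7 arrays, given as a description, was 0.921 between Acta2 and Cnn1 (Spearman coefficient 0.786), 0.857 between Cnn1 and Oxtr, 0.834 between Acta2 and Myl9 and 0.805 between Acta2 and Tagln. All members of an array share its hybridisation and scaling, so part of such likeness can belong to the array.

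Not every member followed this order. Mylk and Myl9, the kinase and its substrate, had a Pearson r of -0.853 (Spearman coefficient -0.893), and Lmod1 and Myh11 one of -0.643 (Spearman coefficient -0.429). The median r of a member with the other 9 was 0.691 for Acta2, 0.589 for Cnn1 and 0.492 for Oxtr. It was -0.298 for Mylk, -0.212 for Lmod1, -0.193 for Tpm2 and -0.0035 for Actg2.

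**Figure D4:**
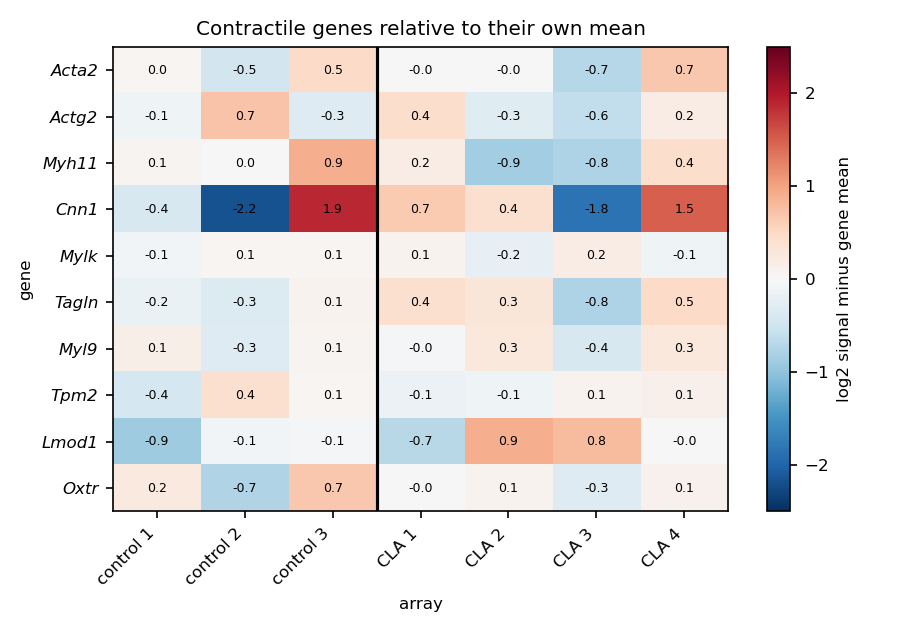
Log2 signal minus the gene's own mean over the 7 arrays for each contractile gene (rows) and array (columns; the line parts control from CLA). Cnn1 shows the widest range and Mylk the narrowest, and control replicate 2 and CLA replicate 3 are low for Acta2, Cnn1, Tagln, Myl9 and Oxtr.

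The array with the highest Actb 3′ to 5′ ratio, CLA replicate 3, was also the lowest for Acta2, Tagln and Myl9. Log2 signal had a Pearson r with the Actb 3′ to 5′ ratio of -0.809 for Tagln, -0.742 for Myl9 and -0.704 for Acta2 (exact permutation p = 0.0262, 0.0270 and 0.0565, adjusted p = 0.219, 0.219 and 0.375 over the 65 relations). The Spearman coefficient was -0.679, -0.393 and -0.536 (exact p = 0.110, 0.396 and 0.236). Without the 2 arrays farthest from the median ratio, control replicate 2 and CLA replicate 3, r became 0.207, 0.697 and 0.521, so these negative values rest on those arrays. Lmod1, Mylk and the brightest Tpm2 probe set had a positive r, 0.649, 0.577 and 0.402 (exact permutation p = 0.0859, 0.184 and 0.324). Without the same 2 arrays r became 0.877, -0.54 and 0.656. None of the 65 relations, 13 probe sets against 5 array measures, passed an adjusted p of 0.05. The part of RNA integrity in the contractile signals was not tested further.

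The genes most like the mean of the members came from no smooth muscle, basal or vascular list used here. The highest Pearson r, 0.992 over 7 arrays, belonged to the corepressor gene Sin3b, followed by the collagen-modifying enzyme gene Plod3 (0.985), Atp1b2 (0.976), Steap1 (0.971) and the ribosomal protein gene Rplp0 (0.970). Entr1, C130021I20Rik, Spryd3, Ubtf and Tm2d3 had r between 0.959 and 0.969. Of 12487 other genes tested, 60, or 0.48%, had an r of at least 0.9. Most like Acta2 alone were Gse1 (0.992), Cops7a (0.990), Plod3 (0.974), Cog8 (0.972) and Pcdh9 (0.969). These r are descriptions, taken as the highest among all genes tested. The mean of the members is unscaled, so Cnn1, with its values near background, can weigh most in the first of these rankings.

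Regulators of the smooth muscle programme showed no difference past the test. Of 10 listed, 8 were tested, and 0 had a limma p under 0.05 before or after adjustment, with a median log2 change of 0.020. Srf, which binds the CArG box, was at 0.0046 ± 0.19 (SE), and its coactivators Mrtfa and Mrtfb were at 0.10 ± 0.23 and -0.0081 ± 0.17. The smallest p belonged to Klf4, a repressor of smooth muscle genes in vessels, at -0.54 ± 0.24 (adjusted p = 0.905), followed by Tgfb1i1 at 0.30 ± 0.39 and Gata6 at 0.32 ± 0.44.

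Other contractile and cytoskeletal genes were mixed. Of 25 listed and 24 tested, 16 had a log2 change above 0 and 8 below, with a median of 0.10, and 0 passed limma's adjusted threshold. Before adjustment 1 was higher and 3 lower, against 2.38% and 3.01% of all genes tested. The groups did not overlap for 4 of 24, against 5.31% of all genes tested. Those without overlap were Synpo2, Tns1, Tpm1 and Tpm4 (the last pair chosen after their values were seen). Synpo2, synaptopodin 2 of actin bundles, had -1.57 ± 0.45 (SE), the focal adhesion gene Tns1 -0.89 ± 0.25, and Des, desmin of muscle intermediate filaments, -1.52 ± 0.60 (adjusted p = 0.688, 0.688 and 0.878). In the 27 pair these were -0.47, -1.12 and 0.22, and in the 28 set -2.04, -0.84 and -2.29. Des was 1436 and Synpo2 471 on control replicate 2, against at most 270 and 141 on the other arrays, in the manner of the skeletal muscle score. The tropomyosins Tpm1 and Tpm4 had 0.31 ± 0.13 and 0.24 ± 0.11 (adjusted p = 0.878 and 0.905), with 0.19 and 0.088 in the 27 pair and 0.35 and 0.32 in the 28 set. Tpm4 was 5132 to 6124 in control and 6356 to 6734 in CLA glands, and Tpm1 was 3445 to 3929 and 4005 to 5056.

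Signalling genes of contraction showed no difference past the test. Of 27 listed and 19 tested, 5 had a positive and 14 a negative log2 change, the median was -0.083, and 0 had a limma p under 0.05 before or after adjustment. The smallest p belonged to Gna12, a G protein subunit gene, at 0.30 ± 0.21 (SE), the potassium channel gene Kcnma1 at 0.59 ± 0.41 and Gna11, a G protein subunit through which the oxytocin receptor raises calcium, at 0.25 ± 0.19. Their adjusted p ran from 0.944 to 0.952.

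The keratins of the basal layer had another pattern than several of its contractile genes. Of 14 basal genes tested outside the contractile set, 12 had a positive log2 change, against 55.3% of all genes tested, with a median of 0.38. While 0 passed limma's adjusted threshold, 3 had an unadjusted p under 0.05, all higher, against 2.38% of all genes tested. These were Krt17 at 1.67 ± 0.39 (SE), Krt14 at 1.41 ± 0.39 and Krt5 at 1.24 ± 0.31 (adjusted p from 0.601 to 0.688). In the 27 pair their log2 differences were 0.45, 0.72 and 0.23, and in the 28 set 2.25, 1.74 and 1.73. Krt5 was 1476, 579 and 559 in control and 1731, 2198, 1631 and 1858 in CLA glands. Control replicates 2 and 3 were alike for Krt5, whereas for Acta2 control replicate 2 was next to lowest and control replicate 3 next to highest. CLA replicate 3, lowest of all for Acta2, had a basal score of 0.37, the second highest. Members differed on that array: Actg2 was lowest there, at 65.3, and Mylk highest, at 681. Lmod1 was highest on CLA replicates 2 and 3, at 257 and 239, the arrays of the highest basal scores. The difference in response between keratins and contractile genes was not tested, since the keratins are named for their small p.

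**Figure D5:**
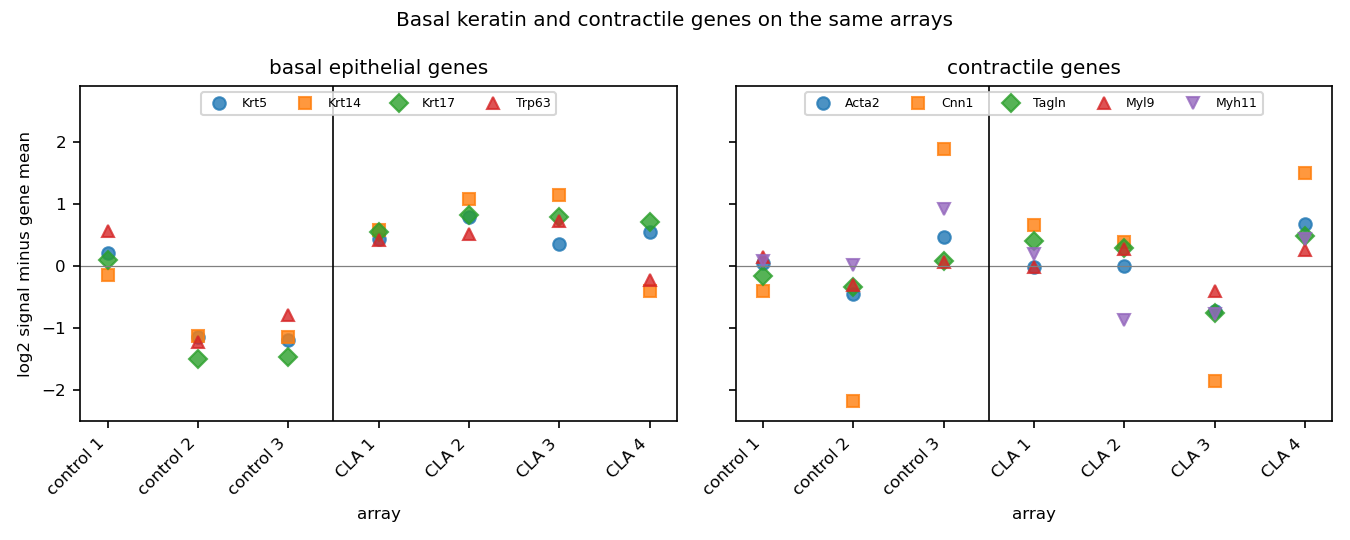
Log2 signal minus the gene's own mean over the 7 arrays for 4 basal epithelial genes (left) and 5 contractile genes (right); the vertical line parts control from CLA arrays. The keratins are low on control replicates 2 and 3. All 5 contractile genes drawn are low on CLA replicate 3 and high on CLA replicate 4. On control replicate 2 they are low apart from Myh11, which is near its mean there and low on CLA replicate 2. On control replicate 3, Acta2, Cnn1 and Myh11 are high, while Tagln and Myl9 are near their mean.

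Genes of other cells that hold the same apparatus or surround it were set beside these values. Of 14 pericyte and vascular smooth muscle genes tested, 5 had a positive and 9 a negative log2 change, with a median of -0.12, and the score ran from -0.025 to 0.30 in control and from -0.26 to 0.13 in CLA glands. The gene of smallest p there was Aoc3, an amine oxidase of vascular smooth muscle that adipocytes also make, at -1.72 ± 0.52 (SE, limma adjusted p = 0.703), -2.42 in the 27 pair and -1.56 in the 28 set. Cspg4 and Rgs5, both of pericytes, had -0.39 ± 0.23 and -0.31 ± 0.20. Of 12 fibroblast genes, which include genes of contractile stromal cells, 12 had a positive change, against 55.3% of all genes tested. Their median was 0.25, and Fn1, Fbln1 and Col1a2 had 0.56 ± 0.22, 0.50 ± 0.26 and 0.22 ± 0.12 (SE).

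Of 14 endothelial genes 11 had a negative change, with a median of -0.23, led by Flt1 at -0.58 ± 0.27 (SE), Esam at -0.31 ± 0.15 and Ptprb at -0.39 ± 0.19. Of 12 luminal genes 6 were on each side of 0, and Cldn7, Elf5 and Epcam had 0.15 ± 0.13, -0.097 ± 0.12 and -0.086 ± 0.12. All 10 adipocyte genes tested were lower with an unadjusted p under 0.05, against 3.01% of all genes tested. Among them Retn, Cd36 and Lpl had -2.04 ± 0.33, -1.50 ± 0.26 and -0.998 ± 0.19. Among muscle genes Myl1, Atp2a1 and Ckm had -4.58 ± 1.30, -3.77 ± 1.12 and -4.11 ± 1.22. The adipocyte genes Retn, Cd36 and Lpl had -2.05, -1.78 and -0.87 in the 27 pair and -2.08, -1.35 and -1.04 in the 28 set. The muscle genes Myl1, Atp2a1 and Ckm had 0.44, 0.65 and 0.65 in the 27 pair and -6.46, -5.50 and -5.93 in the 28 set. No gene of these lists passed limma's adjusted threshold. The summed signal of the adipocyte genes was 50430 to 61384 in control and 17634 to 39685 in CLA glands, and that of the 10 contractile genes was 6572 to 9584 and 5734 to 10524. The part of these other tissues in the contractile values was not tested, beyond the fit with the muscle score and the 65 relations. On the probe set used for each gene, the largest r with the pericyte and vascular score was 0.706, for Tpm2. Its exact permutation p was 0.0726 (adjusted p = 0.429), and its Spearman coefficient was 0.857 (exact p = 0.0238, adjusted p = 0.444). With the adipocyte score the largest was 0.649, for Myh11 (exact permutation p = 0.143, adjusted p = 0.532).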

How the data were processed

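Whole mammary gland RNA was labelled with biotin for 1-colour Affymetrix arrays, per the labels' protocols, each with 45101 probe sets. The deposited intensity values are linear MAS5 signals, as the submitters' processing notes name the tool; its version, the build and the annotation were not given in the sources used here. They were already scaled between arrays, so every value is relative to the rest of an array's signal, and were used as deposited.

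Log2 was taken of the signals, with a floor of 1 and no pseudocount. Of the probe sets, 64 were controls, 34945 had 1 gene symbol (updated by Entrez identifier for 34741 from a RefSeq table of GRCm38.p6), 932 had several and 9160 had none. The brightest probe set by mean log2 stood for a gene. The test took genes whose mean reached the 40th percentile over probe sets (signal 57.7), 12497 of 18193, and all 10 members passed, Cnn1 closest to the limit. The diet difference, CLA minus control, was estimated in R 4.3.3 with limma 3.58.1 (lmFit, eBayes with trend), two-sided, with no covariate and Benjamini-Hochberg adjustment over all genes tested, at 0.05; the fit was checked on simulated data. Correlations with array measures have exact permutation p-values, two-sided. Each array is taken as 1 mouse, as its label has it; replicate numbers follow the order of deposit.

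The members, gene lists and rules were chosen with earlier results of these data known. The rule for names took the members, the 3 genes of smallest p in each list, and the genes most like the members. Outside it, Tpm1, Tpm4, Srf, Mrtfa, Mrtfb, Myocd, Trp63, Pdgfrb, Kcnmb1, Ppp1r14a, Foxf1, Pgm5 and Cacna1c were added for their role or values. Cdh3, Wif1 and Cox4i2, also outside it, were added for signals under the filter. Alternatives were 3 normalizations, pseudocounts of 16 and 64, probe set means, a filter at the 60th percentile or none, untrended and robust eBayes, array weights, the title number as a block or its larger set alone, the muscle score as a covariate, and each array left out. Python 3.11.15 and matplotlib 3.10.9 drew the figures.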

Additional observations from a re-analysis of the deposited data

Results flagged for a closer look

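Among 19 probe sets of the 10 genes, 1 had a CLA array far from the other CLA arrays. The second Mylk probe set, 1425505_at, had a signal of 482 on CLA replicate 1, while the other CLA arrays lay between 284 and 305 and the controls between 297 and 376. The brightest Mylk probe set had 637 on the same array, within its CLA range of 522 to 681. Such a gap is reached in about 1 of 20 groups of 4 when the groups are independent. These 19 probe sets share the same arrays and some share a gene, so no rate was computed for them.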

How the results depend on the processing

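No member passed limma's adjusted threshold under any of 22 alternatives, and the smallest adjusted p was 0.208 (Myh11 with array weights). The number with an unadjusted p under 0.05 was 0 in the main analysis, 1 with the mean of probe sets (Tpm2, -1.07), 1 with array weights (Myh11, -1.07), 0 to 1 with an array left out, and 1 without control replicate 2 and CLA replicate 3 together (Tagln, 0.44). The median over members ran from -0.11 to 0.15 and moved by less than the spread between arrays, 0.343. Where tested, Myh11 kept its sign, at -1.07 to -0.30, as did Tagln (0.10 to 0.54) and Lmod1 (0.19 to 0.90). The signs of the other 7 members each turned under some alternative, with no turned value at an unadjusted p under 0.05; the smallest such p was 0.0624, for Acta2 with the mean of probe sets. Median centring gave 0.045 for Acta2, 0.061 for Mylk and 0.063 for Tpm2. The mean of probe sets gave 0.77 for Acta2, 0.017 for Mylk and 0.15 for Oxtr. For Acta2 this mean takes in 1456658_at and 1444105_at, both below the filter, at 1.66 and 0.68. For Tpm2 it takes in 1449577_x_at, at -2.69. With skeletal muscle score added as a covariate, values were 0.42 for Actg2, -0.83 for Cnn1, -0.29 for Myl9, 0.16 for Mylk, 0.16 for Tpm2, 0.22 for Tpm2 1419739_at and 0.080 for Tpm2 1425028_a_at. Array weights gave -0.47 for Cnn1. Without control replicate 2 and CLA replicate 3 together, Actg2 was 0.33 and Tpm2 0.15. With 1 array left out, log2 changes ran from -0.27 to 0.20 for Acta2, -0.37 to 0.15 for Actg2, -0.56 to 1.47 for Cnn1, -0.076 to 0.20 for Myl9, -0.084 to 0.044 for Mylk, -0.49 to 0.22 for Oxtr and -0.24 to 0.18 for Tpm2. Beyond the probe sets that enter a mean, the cause of these turns was not tested. The 60th percentile filter kept 6 members. No paired analysis was possible because the labels give no replicate numbers shared by the groups.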

Other observations

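Some genes of the smooth muscle lists were too dim to test and are given as signals. Kcnmb1, the channel subunit typical of vascular smooth muscle, had 40.4, 26.6 and 5.56 in control and 6.94, 13.5, 4.27 and 3.71 in CLA glands. Ppp1r14a, an inhibitor of myosin light chain phosphatase, had 31.7 to 72.9 in control and 39.5 to 79.9 in CLA glands, and the calcium channel gene Cacna1c 38.2 to 69.4 and 34.3 to 73.9. Foxf1 had 17.5 to 60.1 and 52.9 to 88.3, and Pgm5 23.1 to 79.4 and 31.5 to 70.8. The groups overlapped for each of these 5 genes.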
